A study of Homo sapiens with 9 samples.

Results

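The Toll-like receptor genes TLR1, TLR2, TLR3, TLR4, TLR5, TLR6, TLR7, TLR9 and TLR10, and the adaptor gene MYD88, were examined in ALL-SIL, a cell line grown from a T-cell acute lymphoblastic leukaemia. These 10 genes are of 58096 gene IDs counted, and 6 of them passed the filter on low counts that left 16072 genes for testing. The members were listed by name, with TLR5 chosen by its counts in these same libraries, which were lower under siRNA against TLX1. The TLX1 protein, a homeobox factor that binds DNA, is active in some T-cell leukaemias, and the study set its knockdown beside scrambled siRNA. Differences of the members between TLX1 siRNA and scrambled siRNA are therefore given as a description, with standard errors and no p-value. Cells were electroporated with a scrambled siRNA (400 nM) or with 1 of 2 siRNAs against TLX1, called s46 and s47, and total RNA was taken at 24 h from all 3 groups. Each group had 3 libraries of the same single cell line; the labels give no dose for s46 and s47 and do not say whether replicates were separate cultures, so errors measure the spread between these libraries, which may be technical.

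Toll-like receptors are membrane proteins of innate immunity that bind conserved microbial molecules through leucine-rich repeats and signal through a cytoplasmic TIR domain. TLR5, at the cell surface, binds bacterial flagellin. TLR2 pairs with TLR1 or TLR6 to bind bacterial lipopeptides, TLR4 responds to lipopolysaccharide, and TLR3, TLR7 and TLR9 sense nucleic acids in endosomes. All of them except TLR3 pass their signal to MYD88, which assembles IRAK kinases and TRAF6 and so activates NF-kappaB and MAP kinases; TLR3 uses the adaptor TICAM1. The receptors are best known in monocytes, dendritic cells and B cells.

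Promoters are printed for the 3 genes of the family with the most reads, and for TLR6, whose annotated start is also that of TLR1. RefSeq promoters (GRCh38.p14, 250 bases before to 50 bases after the start) were matched for 7 of the 10 genes; TLR1, TLR7 and TLR10 were not matched. Sequences run 5′ to 3′ on the gene's strand, and capitals mark matches on either strand to any of the 6 motifs searched. TLR5 lies at chr1:223143199-223143498 (minus strand), MYD88 at chr3:38138411-38138710 (plus), TLR3 at chr4:186068906-186069205 (plus) and TLR6 at chr4:38856768-38857067 (minus).
TLR5: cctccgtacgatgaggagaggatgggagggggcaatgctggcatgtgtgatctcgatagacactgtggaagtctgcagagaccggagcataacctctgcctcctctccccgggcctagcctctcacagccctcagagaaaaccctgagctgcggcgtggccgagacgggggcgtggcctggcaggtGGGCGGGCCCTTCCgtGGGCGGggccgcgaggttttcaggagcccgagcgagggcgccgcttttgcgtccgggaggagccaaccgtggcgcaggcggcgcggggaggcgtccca
MYD88: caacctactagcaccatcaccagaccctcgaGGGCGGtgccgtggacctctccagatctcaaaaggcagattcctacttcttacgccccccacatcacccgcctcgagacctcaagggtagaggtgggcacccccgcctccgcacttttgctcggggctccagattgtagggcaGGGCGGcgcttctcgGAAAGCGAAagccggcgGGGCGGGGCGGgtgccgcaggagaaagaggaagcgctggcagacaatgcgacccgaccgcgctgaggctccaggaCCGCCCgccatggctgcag
TLR3: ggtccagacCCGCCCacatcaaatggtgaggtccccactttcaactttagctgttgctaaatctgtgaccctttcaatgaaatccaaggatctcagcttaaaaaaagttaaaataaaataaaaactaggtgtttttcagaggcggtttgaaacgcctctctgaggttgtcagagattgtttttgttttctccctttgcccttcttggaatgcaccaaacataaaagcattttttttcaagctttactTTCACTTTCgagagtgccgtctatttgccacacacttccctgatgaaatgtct
TLR6: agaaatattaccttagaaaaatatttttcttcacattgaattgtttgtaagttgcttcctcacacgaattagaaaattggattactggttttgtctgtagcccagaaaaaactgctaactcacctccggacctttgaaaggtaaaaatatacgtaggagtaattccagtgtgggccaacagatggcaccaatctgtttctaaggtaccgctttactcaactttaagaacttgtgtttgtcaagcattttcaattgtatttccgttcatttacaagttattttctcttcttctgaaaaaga

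The motifs were the GC box GGGCGG, the TATA box TATAAA, an NF-kappaB-like GGAANNNCC, an interferon-response-like GAAANNGAA, the RUNX core TGTGGT and the homeobox core TAATTA. TLR5 held the GC box at 2 positions, and 68.3% of its 300 bases were G or C. It also held the NF-kappaB-like word once, overlapping a GC box; this short word stood in 20.1% of all promoters, and the longer form with a further G at its start is absent from the TLR5 window. MYD88 held the GC box at 5 positions, 2 of them overlapping, and 65.7% G or C. TLR3 and TLR6 were poorer in G and C, at 40.3% and 34.7%, against a median of 58.7% over the 35116 promoters in the table. TLR3 held 1 GC box, and TLR6 held none of the 6 motifs. Of the matched genes not printed, TLR2, with almost no reads, was at 72.7% G or C. It held the GC box at 2 positions and the NF-kappaB-like word at 2. TLR4 and TLR9 were at 48.3% and 57.7%. The interferon-response-like word stood once each in TLR3 and MYD88, 2 of the 7 matched genes, and in 8.11% of all promoters of this length. The GC box stood in 45.0%, and the homeobox and RUNX cores, found in none of the 7, in 4.84% and 13.1%. The motifs were chosen after the sequences were seen. A match is a string of letters, and no factor's binding was measured here.

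Sense gene reads numbered 21134650 to 33393740 per library, which sets the precision of low counts. Scrambled replicate 1 stood apart: it was the shallowest, with 14.5% multimapping reads against 6.36% to 7.34% elsewhere, and with 39.9% of reads assigned to a gene against 52.6% to 59.9%. TLX1 was 185.9 ± 13.5 CPM (read counts scaled to library size with edgeR's TMM factors; SD, n = 3) with scrambled siRNA, 76.6 ± 11.9 with s46 and 70.8 ± 6.28 with s47, so the targeted RNA was lower in the libraries labelled for it. T-lineage markers other than CD2 fitted the line's label: the 7 markers summed to 1135 to 1413 CPM in every library, with CD3D at 234.0 to 396.9 CPM. CD2 was low, at 1.34 to 5.755 CPM. The cells in which Toll-like receptors are best known left little trace. All 9 monocyte and macrophage markers were under 1 CPM in every library, with a summed level of 0.294 to 0.627 CPM with scrambled siRNA and 0.381 to 0.573 with TLX1 siRNA. Plasmacytoid dendritic cell markers summed to 0.371 to 0.698 and 0.432 to 1.16 CPM, all 6 under 1 CPM. Of 7 B-cell markers, which summed to 11.1 to 13.4 and 10.4 to 14.8 CPM, 4 were under 1 CPM everywhere, CD22 was at 0 reads, and CD79A (4.62 to 9.14 CPM) and CD79B (2.64 to 7.62) made up most of the sum.

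Among the 9 receptor genes, TLR5 was the most abundant in every library. Its transcripts made up 76.6% ± 9.25 (SD, n = 3) of the sense reads on the 9 receptors with scrambled siRNA, 62.9% ± 7.98 with s46 and 69.3% ± 6.06 with s47, and these shares overlapped between the groups. To compare genes, CPM was divided by the length of all annotated exons in kb. On that scale, with scrambled siRNA, MYD88 stood at 10.8 ± 3.15 (SD, n = 3), TLR5 at 2.41 ± 0.716, TLR3 at 0.420 ± 0.134, TLR1 at 0.255 ± 0.165, TLR6 at 0.171 ± 0.0739, TLR7 at 0.0458 ± 0.0224 and TLR9 at 0.0353 ± 0.0296 CPM per kb. MYD88 lay above TLR5, and TLR5 above TLR3, in all 9 libraries without overlap. TLR3 and TLR1 overlapped, as did TLR1 and TLR6, and TLR7 and TLR9. TLR6 and TLR7 were apart with scrambled siRNA but overlapped over the 9 libraries. Against 15991 tested genes with a length, the scrambled mean of MYD88 was above 70.7% of genes, that of TLR5 above 37.1% and that of TLR3 above 11.5%.

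**Figure D1:**
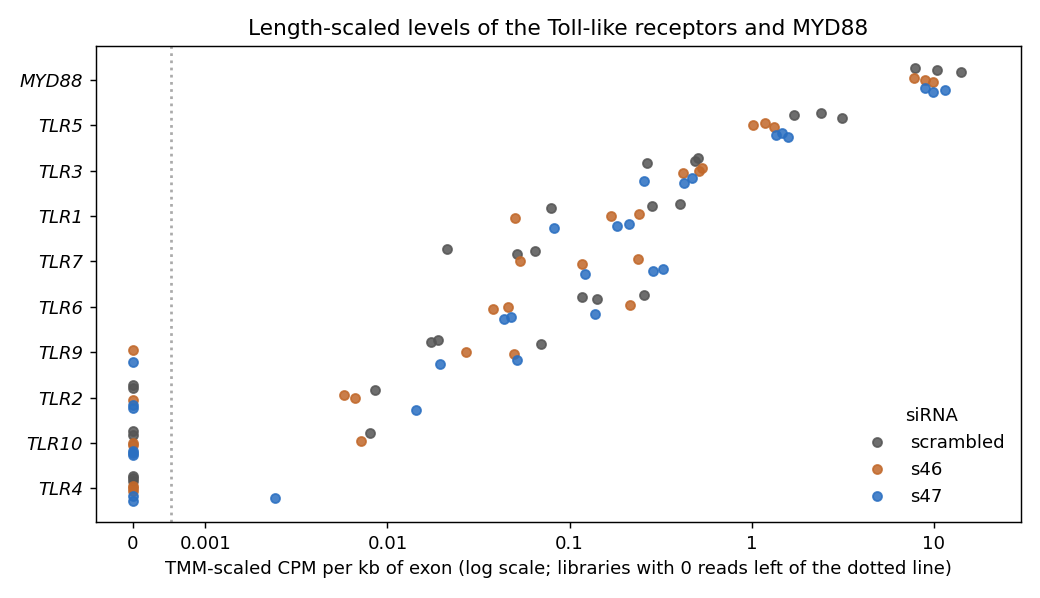
Length-scaled level (TMM-scaled CPM per kb of exon, log axis) of the 10 genes, 1 point per library, coloured by siRNA group; libraries with 0 reads stand left of the dotted line. MYD88 and TLR5 stand apart from the other genes in all 9 libraries, and TLR2, TLR4 and TLR10 are mostly at 0.

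TLR2, TLR4 and TLR10 were close to absent. Over the 9 libraries together TLR2 had 5 sense reads, TLR4 1 and TLR10 2, with at most 2 in any library, and they were at 0 in 5, 8 and 7 libraries. A count of 0 allows up to 3 reads, which is 0.0905 to 0.134 CPM depending on the library, and this limit covers counting error only. TLR8, the receptor for single-stranded RNA next to TLR7 on the X chromosome, had 0 sense reads in every library. TLR9 had 0 to 6 reads per library and 26 in all, and the opposite strand of the gene also had 26. Its count is uncertain, since 86.3% of its exon bases are shared with AC097637.1, a gene model on the same strand that had 0 reads, and reads in shared exons are set aside as ambiguous. Neither these 4 members nor TLR8 passed the filter, and no difference between groups was detectable for them at this depth.

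TLR5 (ENSG00000187554.11, chromosome 1, 223109406 to 223143282, minus strand) was lower with both TLX1 siRNAs. With scrambled siRNA, replicates 1, 2 and 3 had 24.3, 13.2 and 18.7 CPM, from 543, 392 and 509 reads. With s46 they had 10.3, 7.89 and 9.17 CPM, and with s47 12.4, 10.6 and 11.4 CPM. The 6 siRNA libraries, at 7.89 to 12.4 CPM, all lay below the 3 scrambled libraries, with a narrow gap to scrambled replicate 2. Of all tested genes 8.12% did not overlap in either direction and 3.65% lay below, as TLR5 did. The edgeR test called 0.156% of all genes lower for both siRNAs averaged, 0.0249% for s46 and 0.0871% for s47. None of these shares is read against TLR5, whose difference singled it out. The group means were 18.7 ± 5.56, 9.11 ± 1.19 and 11.5 ± 0.866 CPM (SD, n = 3) for scrambled, s46 and s47. Averaged over both siRNAs the log2 fold change was -0.87 ± 0.17 (SE), 1.83-fold lower; it was -1.04 ± 0.21 with s46 and -0.71 ± 0.21 with s47; both siRNAs were compared with the same scrambled libraries. Without scrambled replicate 1, which had the highest TLR5 level, the log2 fold changes were -0.64 on average, -0.81 with s46 and -0.47 with s47. In bulk RNA, fewer cells with the transcript and less transcript per cell cannot be told apart.

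The choice of TLR5 did not use the comparison of s46 with s47, which could be tested. TLR5 was lower with s46 than with s47 in each pairing of libraries. The share of all tested genes that separate s46 from s47 in this way was not counted, so this is a description only. The log2 difference of -0.33 ± 0.21 (SE) did not pass the test (edgeR adjusted p 1). The same test called 0 of the 6 tested members and 0% of all tested genes. At an unadjusted p under 0.05 it held 113 genes, none of them a member, and DESeq2 and limma-voom also called 0. These 113 of 16072 genes are a smaller share than the 0.05 expected with no difference. The test was thus cautious here, and its result does not show that s46 and s47 act alike. In a fit of s46 and s47 alone TLR5 differed by -0.34 ± 0.15 (SE), and 0 genes were called. The log2 differences of the other members were -0.84 ± 0.54 (TLR7), 0.41 ± 0.67 (TLR6), 0.36 ± 0.30 (TLR3), -0.18 ± 0.19 (MYD88) and -0.05 ± 0.61 (TLR1). Single libraries set the values of the genes with few reads: TLR6 was -0.85 without s46 replicate 3 and 1.15 without s47 replicate 3, TLR7 was -1.53 without s46 replicate 3, and TLR1 ran from -0.53 without s46 replicate 3 to 0.35 without s46 replicate 1.

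**Figure D2:**
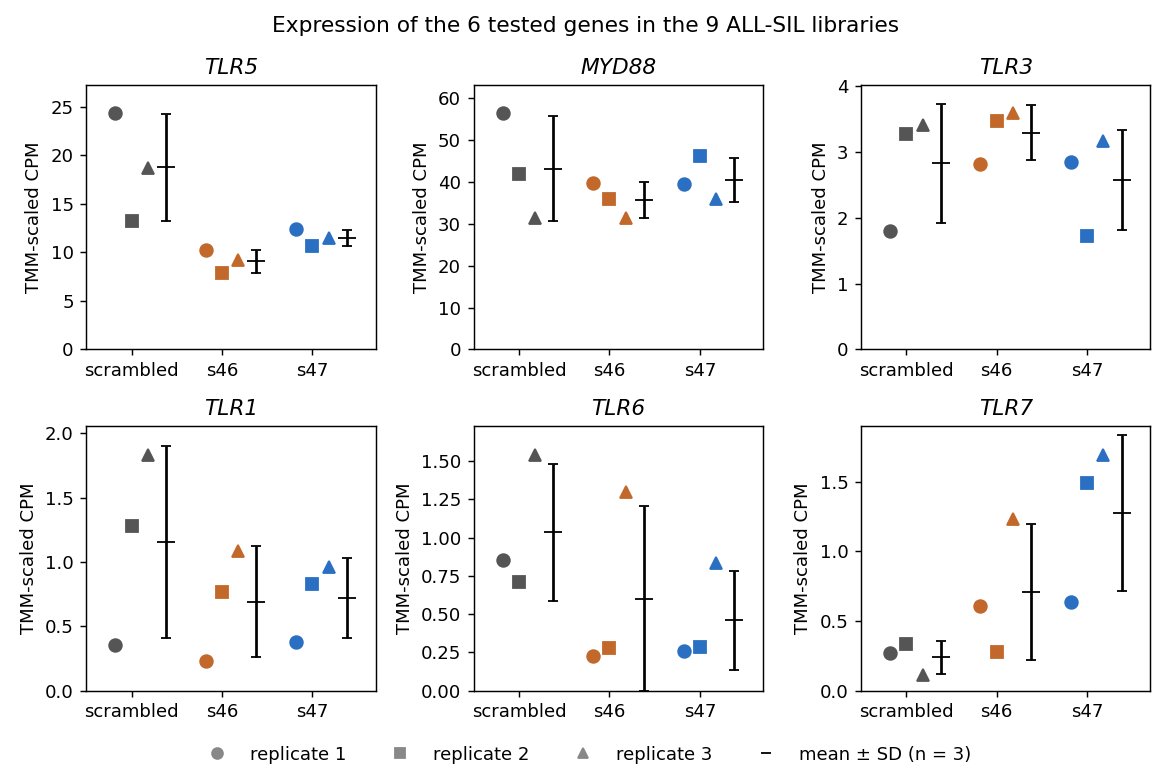
TMM-scaled CPM of the 6 tested genes in each library, by siRNA group; marker shapes give the replicate number and bars the mean ± SD (n = 3). TLR5 is at 7.89 to 12.4 CPM in the siRNA libraries and at 13.2 to 24.3 CPM in the scrambled ones, while MYD88, TLR3, TLR1 and TLR6 overlap between groups and TLR7 is above all scrambled libraries in 5 of 6. TLR7 passed the filter on low counts through the siRNA libraries, and TLR6 through the scrambled ones.

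TLR1 (ENSG00000174125.7, chromosome 4, 38790677 to 38856817) and TLR6 (ENSG00000174130.12, chromosome 4, 38823715 to 38856817), the partners of TLR2, lie on the minus strand and share 57 bases of exon at their common start. TLR1 had 0.359, 1.28 and 1.84 CPM in scrambled replicates 1, 2 and 3, then 0.229, 0.765 and 1.09 with s46 and 0.374, 0.827 and 0.965 with s47. TLR6 had 0.851, 0.708 and 1.54 CPM with scrambled siRNA, 0.229, 0.278 and 1.30 with s46 and 0.262, 0.286 and 0.832 with s47. For both genes, the library numbered 3 was the highest in each of the 3 groups, and for TLR1 the library numbered 1 was the lowest in each. The groups overlapped: 1 of 6 siRNA libraries lay below all scrambled ones for TLR1, and 4 of 6 for TLR6. Averaged over both siRNAs, log2 fold changes were -0.71 ± 0.51 (SE) for TLR1 and -0.95 ± 0.55 for TLR6. They rest on 6 to 50 and 6 to 43 reads per library. They also move with single libraries: without scrambled replicate 3 they were -0.22 and -0.54, and without s46 replicate 3 the value for TLR6 was -1.57. TLR6 passed the filter on low counts through the scrambled libraries, so the filter favoured a lower value with TLX1 siRNA. In a fit of s46 and s47 alone TLR6 did not pass the filter. The proteins of TLR1 and TLR6 are close relatives, and reads that fit several places are not in the gene counts, so both levels may be too low.

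TLR3 (ENSG00000164342.12, chromosome 4, 186069152 to 186088069, plus strand), the receptor for double-stranded RNA, was found at similar levels in the 3 groups. It had 1.79, 3.27 and 3.41 CPM in scrambled replicates 1, 2 and 3, 2.82, 3.48 and 3.59 with s46 and 2.85, 1.72 and 3.16 with s47. The ranges overlapped throughout, and the lowest libraries were scrambled replicate 1 and s47 replicate 2. Averaged over both siRNAs, TLR3 differed by 0.04 ± 0.26 (SE) on the log2 scale, and it was -0.20 without scrambled replicate 1.

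TLR7 (ENSG00000196664.4, chromosome X, 12867083 to 12890380, plus strand), an endosomal receptor for single-stranded RNA, had higher values in most siRNA libraries, from few reads. It had 0.269, 0.337 and 0.110 CPM in scrambled replicates 1, 2 and 3, which is 6, 10 and 3 reads. With s46 it had 0.610, 0.278 and 1.24 CPM (16, 8 and 41 reads), and with s47 0.637, 1.495 and 1.70 CPM (17, 47 and 51 reads). Of the 6 siRNA libraries 5 lay above all scrambled ones, and s46 replicate 2 lay among them. Over all tested genes 4.47% had all 6 above, and the share with 5 was not counted. TLR7 passed the filter on low counts through the siRNA libraries, so the filter favoured a higher value there. Averaged over both siRNAs the log2 fold change was 1.98 ± 0.57 (SE), 3.95-fold higher; it was 1.56 ± 0.63 with s46 and 2.40 ± 0.61 with s47. The value with s46 was 0.88 without s46 replicate 3. Plasmacytoid dendritic cells, which are rich in TLR7, have CLEC4C and LILRA4 as defining markers, and these reached at most 0.0448 and 0.139 CPM in any library. The summed level of that cell type's 6 markers, given above, reached higher with TLX1 siRNA (1.16 CPM) than with scrambled (0.698 CPM). NRP1 was the most abundant of the 6 on average. In any library NRP1 reached at most 0.604 CPM, TCF4 0.599, GZMB 0.381 and IL3RA 0.0636. The markers' part in the TLR7 values was not tested. UNC93B1, the protein that carries the nucleic acid receptors to endosomes, had 0 to 5 reads per library.

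MYD88 (ENSG00000172936.12, chromosome 3, 38138478 to 38143022, plus strand), the shared adaptor, had the highest level of the 10 genes. It had 56.4, 41.8 and 31.3 CPM in scrambled replicates 1, 2 and 3, 39.8, 36.0 and 31.3 with s46, and 39.4, 46.2 and 35.8 with s47. Scrambled replicate 1 was the highest library, as for TLR5, and the other 8 libraries lay between 31.3 and 46.2 CPM. Averaged over both siRNAs, MYD88 differed by -0.18 ± 0.16 (SE) on the log2 scale, and it was 0.06 without scrambled replicate 1, so its sign rests on that library.

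**Figure D3:**
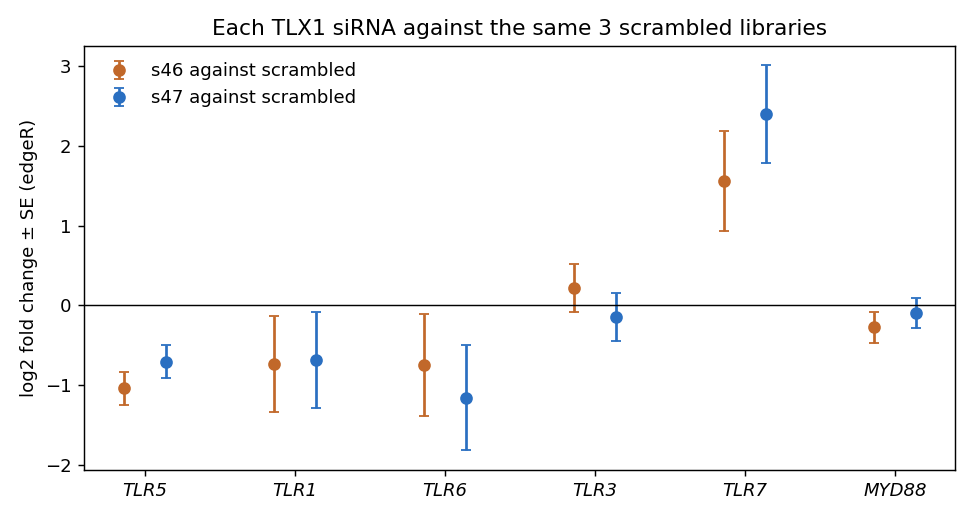
Log2 fold change ± SE (edgeR) of the 6 tested genes for s46 and for s47, each against the same 3 scrambled libraries. TLR5, TLR1 and TLR6 lie below 0 and TLR7 above 0 with both siRNAs, and TLR3 lies at 0.22 with s46 and -0.14 with s47. TLR7 passed the filter on low counts through the siRNA libraries, where it was higher, and TLR6 through the scrambled ones, where it was higher.

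The 7 lists of other genes of the pathway with any tested gene held 75 tested genes, and 1 of them passed the test when both siRNAs were averaged and set against scrambled. That is 0 higher and 1 lower, or 1 in 75, beside 0.566% of all 16072 genes (91, of which 66 were higher and 25 lower; with library totals in place of TMM 49 and 30). With each siRNA alone, 0.174% of all genes passed for s46 and 0.33% for s47. The called gene was MAP3K8, a kinase held inactive by NFKB1's precursor protein and released on receptor signalling to start the ERK cascade. MAP3K8 had 38.9, 43.7 and 51.1 CPM in scrambled replicates 1, 2 and 3, 29.5, 25.6 and 27.7 with s46 and 20.5, 18.7 and 25.4 with s47. All 6 siRNA libraries lay below all scrambled ones. It fell by 0.87 ± 0.13 (SE) on the log2 scale (edgeR adjusted p 0.0102), a 1.83-fold reduction, with log2 fold changes of -0.69 with s46 (adjusted p 0.109) and -1.05 with s47 (adjusted p 0.0158). The s47 call was lost without scrambled replicate 3 (0.103), s47 replicate 1 (0.115) or s47 replicate 2 (0.0777), and in a fit of these groups alone (0.0935). Between s46 and s47 the log2 difference of 0.36 ± 0.15 was not called (edgeR adjusted p 1). The call for both siRNAs averaged was lost without scrambled replicate 3 (log2 fold change -0.76, adjusted p 0.0690), and its adjusted p was 7.51e-07 to 0.0358 under the other 16 alternatives.

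Step by step down the pathway, most genes had small differences. Of 16 tested adaptors and proximal kinases 6 had a log2 fold change above 0 and 10 below, with a median of -0.09, beside a median of -0.03 and 46.5% above 0 over all tested genes. The most abundant, the kinase MAP3K7 (0.27 ± 0.11 SE) and the ubiquitin-conjugating enzyme UBE2N (0.16 ± 0.12), had an edgeR adjusted p of 0.245 and 0.467. TIRAP, which bridges TLR2 and TLR4 to MYD88 (-1.15 ± 0.37, adjusted p 0.192), TICAM1, the adaptor of TLR3 (-0.86 ± 0.34, 0.236), the kinase IRAK4 (0.03 ± 0.11, 0.902) and the ubiquitin ligase TRAF6 (0.14 ± 0.09, 0.442) did not pass either. TICAM1 had 7.89 CPM in scrambled replicate 1 and 1.91 to 2.62 CPM in the other 8 libraries, and without that library its log2 fold change was -0.08 (adjusted p 0.960). TIRAP passed in 1 of the 9 fits that each left out a library, the one without scrambled replicate 2. TLR4's co-receptor LY96 was present at 2.77 to 5.32 CPM, while CD14, another co-receptor, did not exceed 0.243 CPM. The list of co-receptors and trafficking proteins had 9 tested genes and a median of 0.14. In that list HMGB1, a chromatin protein that also acts as a receptor ligand (0.54 ± 0.15, adjusted p 0.142), and the chaperone HSP90B1 (0.14 ± 0.15, 0.638) were the most abundant. HMGB1 passed without scrambled replicate 2 (0.76, adjusted p 0.0168).

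The 17 tested IKK and NF-kappaB genes had a median of -0.10, with the kinase IKBKB at -0.10 ± 0.09 (SE, edgeR adjusted p 0.556) and the deubiquitinase OTULIN at 0.09 ± 0.09 (0.593). The 7 TBK1 and IRF genes had a median of -0.06, with IRF1 at 0.26 ± 0.09 (0.218) and TANK at 0.07 ± 0.11 (0.757). The 15 MAP kinase and AP-1 genes, MAP3K8 among them, had a median of -0.06, with MAPK8 at -0.06 ± 0.14 (0.838) and MAPK14 at 0.11 ± 0.09 (0.519). Of 8 listed genes of the IL-1 receptor family, IL1RAP (-0.44 ± 0.12, 0.154) and SIGIRR (-0.31 ± 0.13, 0.245) were tested. The other 6 of the 8 stayed at or under 0.0998 CPM in every library. Of 27 inflammatory target genes of the receptors 18 did not pass the filter, beside 72.3% of all gene IDs. All gene IDs include non-coding genes, and a share over protein-coding genes alone was not computed. Of the 18 genes, 13 had 0 reads in every library, among them IL6 and the chemokines CCL2 and CXCL10. The cytokine gene TNF was present at 27.8 to 46.9 CPM, with a log2 fold change of -0.28 ± 0.15 (edgeR adjusted p 0.334). The 9 tested targets had a median of -0.26, with BIRC3 at 0.32 ± 0.19 (0.389) and SOCS1 at -0.16 ± 0.15 (0.574). Leaving out 1 library turned the sign of HSP90B1, TANK and SOCS1 (without scrambled replicate 1), MAPK8 (without scrambled replicate 2 or s47 replicate 3) and IRAK4 (without scrambled replicate 1 or s46 replicate 1), and none of these 5 was called in any such fit.

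**Figure D4:**
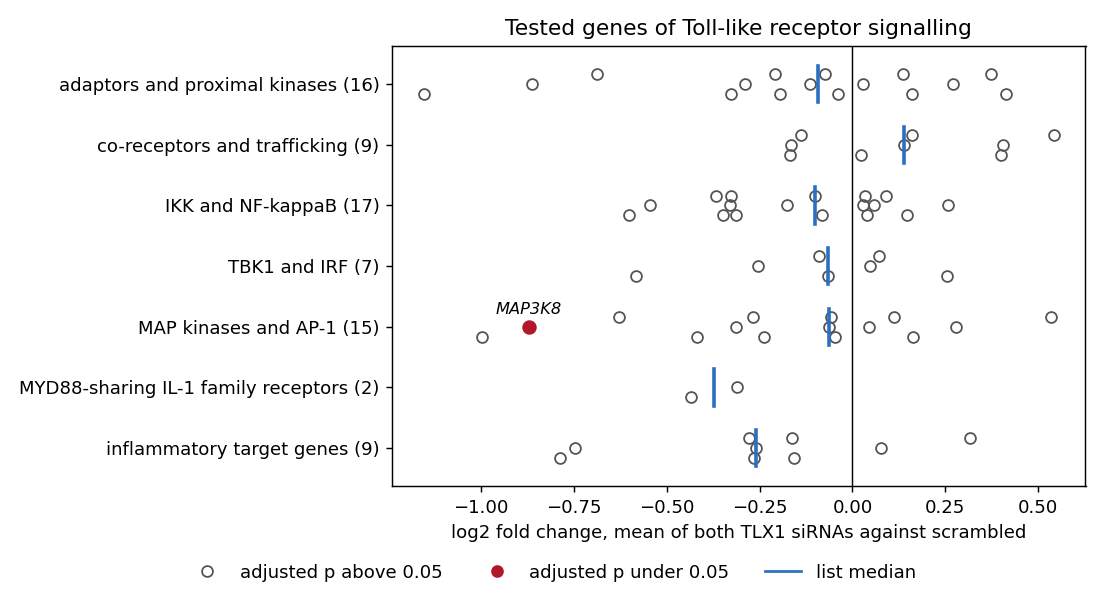
Log2 fold change, averaged over both TLX1 siRNAs, of the 75 tested pathway genes, by list with the number tested; the filled point passed at an adjusted p under 0.05, open points did not, and bars are list medians. MAP3K8 is the 1 filled point, and the list medians lie between -0.37 and 0.14.

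Among the 75 tested genes, 6 had all siRNA libraries below all scrambled ones (8.0%, beside 3.65% of all tested genes): ATF3, IL1RAP, IRF7, MAP3K8, NFKB1 and TNIP1. The reverse held for 4 (5.33%, beside 4.47%): HMGB1, IRF1, MAP3K7 and PELI2. These 10 were singled out after their values were seen, and only MAP3K8 of them passed the test.

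Next to TLR5 on chromosome 1, the nearest tested gene on each side was DISP1, 103410 bases away (222872271 to 223005995, plus strand), and AL359979.2, a long non-coding RNA that starts 766 bases beyond the start of TLR5 on the opposite strand (223144049 to 223144954). DISP1, which releases Hedgehog proteins, had 6.37 ± 0.260 CPM (SD, n = 3) with scrambled siRNA and 4.76 ± 1.13 and 4.85 ± 0.482 with s46 and s47. Its log2 fold change, averaged over both siRNAs, was -0.40 ± 0.18 (SE, edgeR adjusted p 0.268). All 6 siRNA libraries (3.62 to 5.87 CPM) lay below all scrambled ones (6.07 to 6.54 CPM), as for TLR5 and for 3.65% of all tested genes. AL359979.2 had 0.832 ± 0.140, 0.502 ± 0.353 and 0.440 ± 0.0907 CPM (SD, n = 3) and a log2 fold change of -0.80 ± 0.43 (SE, adjusted p 0.329). The groups overlapped for AL359979.2, and neither neighbour passed the test. On the strand opposite TLR5 itself, 0 to 3 reads were counted per library.

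The genes whose log2 CPM followed TLR5 most closely over the 9 libraries were IQCN (Pearson r 0.98), the integrin subunit ITGB7 (0.96), LRCH3 (0.96), the exchange factor CYTH1 (0.95) and the cyclin CCNG2 (0.95). The most opposite were SAR1B, a GTPase of vesicle budding (r -0.99), the co-chaperone DNAJC7 (-0.97) and the lipid phosphatase PLPP1 (-0.97). The 9 points share their libraries and the 3 siRNA groups, so r holds the difference between groups as well as the scatter within them. Scrambled replicate 1, the library that stood apart, was the highest for TLR5 and for each gene that followed it (IQCN 5.96 CPM). It was the lowest for each of the opposite genes (SAR1B 26.5 CPM), so these r values lean on that library. IQCN had 3.83 ± 1.92 CPM (SD, n = 3) with scrambled siRNA, 1.38 ± 0.190 with s46 and 1.74 ± 0.138 with s47, the order of the groups seen for TLR5. SAR1B had 34.3 ± 8.68, 55.2 ± 6.20 and 48.2 ± 2.69 CPM, the reverse order. Both orders follow from picking these genes by r over the same libraries, and are no support for a link to TLR5.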

How the data were processed

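Total RNA of 9 ALL-SIL libraries, 3 per siRNA group, was depleted of ribosomal RNA and made into stranded libraries, per the labels' protocols. For each library the authors deposited unnormalised counts of reads by gene. The files are named and laid out like the per-gene count output of the STAR aligner; GRCh38 is the build that the submitters' processing notes name, and the annotation is not given in the sources used here. Of 3 count columns, the one for the sense strand was used. Summary lines that belong to no gene stayed out of all totals: 4.52% to 6.70% of a library's reads were unmapped, 6.36% to 14.5% were multimapping, 23.8% to 36.8% lay outside genes and 2.12% to 4.45% were ambiguous. Symbols, coordinates and exon lengths came from GENCODE 29, which matched 57492 of 58096 gene IDs; for TLR2, TLR4, TLR5 and MYD88 the files carry another version of the gene ID.

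Genes were kept by filterByExpr (minimum count 10), scaled by TMM and fitted by group over all 9 libraries with the robust quasi-likelihood method of edgeR 4.0.16 (R 4.3.3), with Benjamini-Hochberg adjustment over 16072 genes and a threshold of 0.05. SE were derived from the F statistics. On counts simulated for the mean of both siRNAs (15726 genes), the test recovered 67 of 99 simulated 2-fold changes and 32 of 98 simulated 1.5-fold changes, with 4 false calls. The simulated libraries were independent, with none that stood apart and no effect shared by replicate number. These counts therefore do not show how the test behaves on libraries like the real ones. Alternatives were DESeq2 1.42.0, limma-voom (limma 3.58.1), other scalings and filters, unstranded counts, the replicate number as a block, the compared groups alone, and leaving out each library.

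The members, pathway lists, markers and motifs were chosen with earlier results of these data known. Named genes were the members, TLX1, called list genes (at most 4 per list), the 2 most abundant uncalled genes of each list, TLR5's nearest tested neighbours, and the 5 genes most and 3 least correlated with TLR5; list genes named beyond these were chosen after their values were seen.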

Additional observations from a re-analysis of the deposited data

How the results depend on the processing

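For the mean of both siRNAs, the log2 fold change of TLR5 ran from -1.07 (without scrambled replicate 2) to -0.64 (without scrambled replicate 1) over 17 alternatives; TLR5 was chosen by these libraries, so its sign is no support. TLR7 ran from 1.64 to 2.36 but passed the filter through the siRNA libraries: it was not tested with a minimum count of 50, or for s46 in a fit of s46 and scrambled alone. TLR6 ran from -1.57 to -0.54 but passed the filter through the scrambled libraries: it was not tested with a minimum count of 50, or in a fit of s46 and s47 alone. TLR3 ranged from -0.20 to 0.20 and MYD88 from -0.36 to 0.06, so both changed sign. The number of genes called moved far more. For the mean of both siRNAs it was 91, but 458 with DESeq2, 876 with no filter, and 22 (without scrambled replicate 3) to 1650 (without scrambled replicate 2) when 1 library was left out. For s46 it was 28, but 196 with DESeq2, 384 with no filter, 14 with library totals, 6 with only the groups compared, and 4 to 225 without 1 library; for s47 it was 53, but 203, 432 and 8 with DESeq2, no filter and only the groups compared, and 4 to 275 without 1 library. For s46 against s47, 3 genes were called with no filter and 0 otherwise. Of the pathway genes, 1 was called, but 4 with DESeq2, 7 with no filter, and 0 to 10 without 1 library, the extremes being scrambled replicates 3 and 2. The cause of these differences was not tested.

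With the replicate number as a block, 222 genes were called for the mean of both siRNAs, 74 for s46, 125 for s47, 0 for s46 against s47 and 2 pathway genes, MAP3K8 and TRAF1. The labels do not say that a number marks a shared batch. Of 9 pairs of same-numbered libraries, 8 deviated together (r 0.20 to 0.44) and number 2 of scrambled and s47 did not (r -0.03), and 8 of 9 libraries correlated best with their own number, a hint from the data and not the design. The depth limits statements on TLR2, TLR4, TLR9 and TLR10, which stayed at or under 6 reads per library.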
